A study of Bos taurus and Bos grunniens and Bubalus bubalis with 15 samples.

Results

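SCD, FASN, ACACA and ACACB encode the enzymes that make fatty acids from acetyl-CoA and desaturate them. All probe sets whose gene symbol in the platform's annotation was 1 of these 4 were taken, which gave 5 of the 24016 probe sets on the array that were no controls, and 4 of the 9155 genes that its probe sets name singly. SCD, FASN and ACACB had 1 each and ACACA had 2. Each was read in the longissimus dorsi, the long back muscle, of 15 animals slaughtered at 36 months of age. The animals formed 5 groups of 3. Of the Chinese beef breed Qinchuan there were intact males, castrated males and females, and the other groups were Qinghai yak and Guangxi buffalo. The cattle were born within 30 days of each other and reared under the same conditions, while no label states the sex of the yak and buffalo. The array carries cattle probes, so yak and buffalo RNA was read through probes made for another species.

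Acetyl-CoA carboxylase makes malonyl-CoA, the building block of fatty acids and also the inhibitor of fatty acid entry into mitochondria. Its form ACACA lies in the cytosol and feeds synthesis, while ACACB sits at the mitochondrial surface and is the main form in muscle fibres, where its malonyl-CoA restrains the carnitine palmitoyltransferase CPT1B. FASN, fatty acid synthase, builds palmitate from malonyl-CoA. SCD, stearoyl-CoA desaturase, turns saturated fatty acids into monounsaturated ones such as oleate, the main unsaturated fatty acid of beef fat. In ruminants the fat cell, not the liver, is the main site of synthesis, so a muscle sample holds these enzymes partly in the fat cells between its fibres. In whole tissue, fewer cells of a type and less RNA per cell cannot be told apart.

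Values are the intensities the authors deposited, on a linear scale and with no read depth, so the number of arrays limits the precision. Differences are log2 fold changes after adding 16 to each intensity, with limma's standard error (SE) and an adjusted p over all 14409 probe sets bright enough to test. A gene is said to rise or fall where the adjusted p was under 0.05, with the direction that of the first group named. The median log2 value of an array was 6.71 to 6.81, and arrays of the same group correlated at 0.915 to 0.985 across probe sets. Of 12 skeletal muscle fibre markers 8 had a probe set, all 8 were tested, and their summed intensity was 85887 to 107770 over the 15 arrays. Intact male 1 stood apart, with 8 macrophage markers summing to 22336 against 3913 to 5660 in the other intact males and 943 to 2420 in castrated males and females.

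SCD, FASN and ACACB passed the filter on dim probe sets, which asked for a mean above 69.8, and both ACACA probe sets did not. The within-group standard deviation on the log2 scale was 0.80 for FASN, above 99.3% of the probe sets tested, 0.50 for ACACB (above 95.4%) and 0.47 for SCD (above 94.7%), against a median of 0.19. For ACACB the spread lay mainly in intact males, at 1.03, while it was 0.33 in females, 0.19 in castrated males, 0.12 in buffalo and 0.076 in yak.

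**Figure D1:**
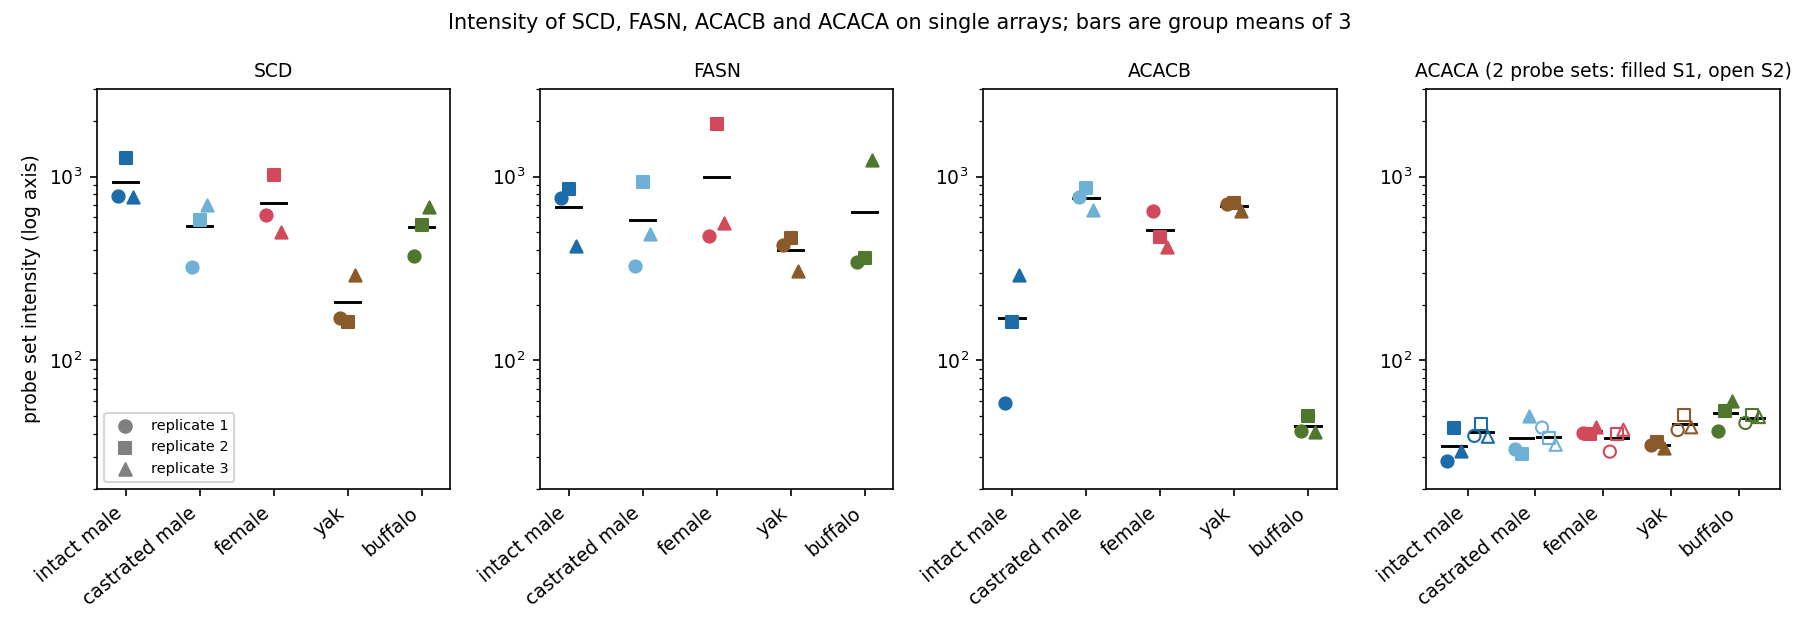
Intensity (log axis) of each probe set on each of the 15 arrays, by group, with replicate numbers as marker shapes and bars at the mean of 3 arrays; levels of different probe sets cannot be set against each other. SCD is lowest in the 3 yak, ACACB is lowest in the 3 buffalo and low in intact males, FASN overlaps between nearly all groups, and both ACACA probe sets stay between 28.5 and 59.997.

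ACACB differed most among the groups. It read 58.3, 162 and 291 in intact males 1, 2 and 3, against 777, 867 and 661 in castrated males. In females it read 654, 472 and 417. Every castrated male and every female lay above every intact male, and every castrated male lay above every female. Over all probe sets these pairs of groups did not overlap for 24.8%, 33.1% and 17.5%, in that order.

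ACACB averaged 170 ± 116 (SD, n = 3) in intact males and 768 ± 103 in castrated males, 4.89-fold higher on the log2 scale with 16 added. The gene rose in castrated males, with a log2 fold change of 2.29 (SE 0.43, limma's adjusted p = 0.0411). This was 1 of the 3 members tested, and over all probe sets 0.625% rose and 0.84% fell in that comparison. Of all 14409 differences it was the 3rd largest in that direction. The call was lost without intact male 2 (adjusted p = 0.12), without any 1 castrated male (0.116 to 0.128) or any 1 female (0.0588 to 0.0719), and with the replicate number as a block (0.0755). It held without intact male 1, where the log2 fold change was 1.74 (0.0224), and without intact male 3, where it was 2.76 (0.00789).

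Females averaged 514 ± 124 for ACACB. Their log2 fold change against intact males was 1.71 (SE 0.43, limma's adjusted p = 0.0524, 95% interval 0.74 to 2.68), with 3 of 3 females above 3 of 3 intact males. Over all probe sets 2.12% rose and 3.37% fell in that comparison, and groups did not overlap for 33.1%. Females against castrated males gave -0.58 (interval -1.55 to 0.39, adjusted p = 0.797), where 0.0139% of all probe sets rose, 0.00694% fell and 17.5% had groups that did not overlap. The test for any difference among the 3 cattle groups gave ACACB an adjusted p of 0.0532 in limma, with 1.96% of probe sets passing.

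Intact male 1, the lowest array for ACACB among cattle, was also the highest for macrophage markers. The median of 8 macrophage markers stood 4.02, 1.75 and 1.43 above the mean of castrated males and females in intact males 1, 2 and 3, on the log2 scale. All 8 had lower values in castrated than in intact males at an unadjusted p under 0.05, which 20.5% of all probe sets reached in either direction. Their median log2 fold change was -1.98, and 0 passed the adjusted threshold in limma. Without intact male 1 the count was 3, and the share of all probe sets passing in that fit is not given here. Fibroblast and matrix markers summed to 32758 to 43674 in intact males and 11603 to 12349 in castrated males. Of these markers 7 of 9 fell, against 0.84% of all probe sets. The median of 8 muscle fibre markers lay -0.24, 0.05 and -0.03 from the same reference in intact males 1 to 3. Actin probe sets at the 3' and 5' ends, whose ratio grows as RNA degrades, gave ratios of 1.48, 1.17 and 1.39 in those arrays. The part of other cells or of RNA quality in the ACACB difference was not tested.

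**Figure D2:**
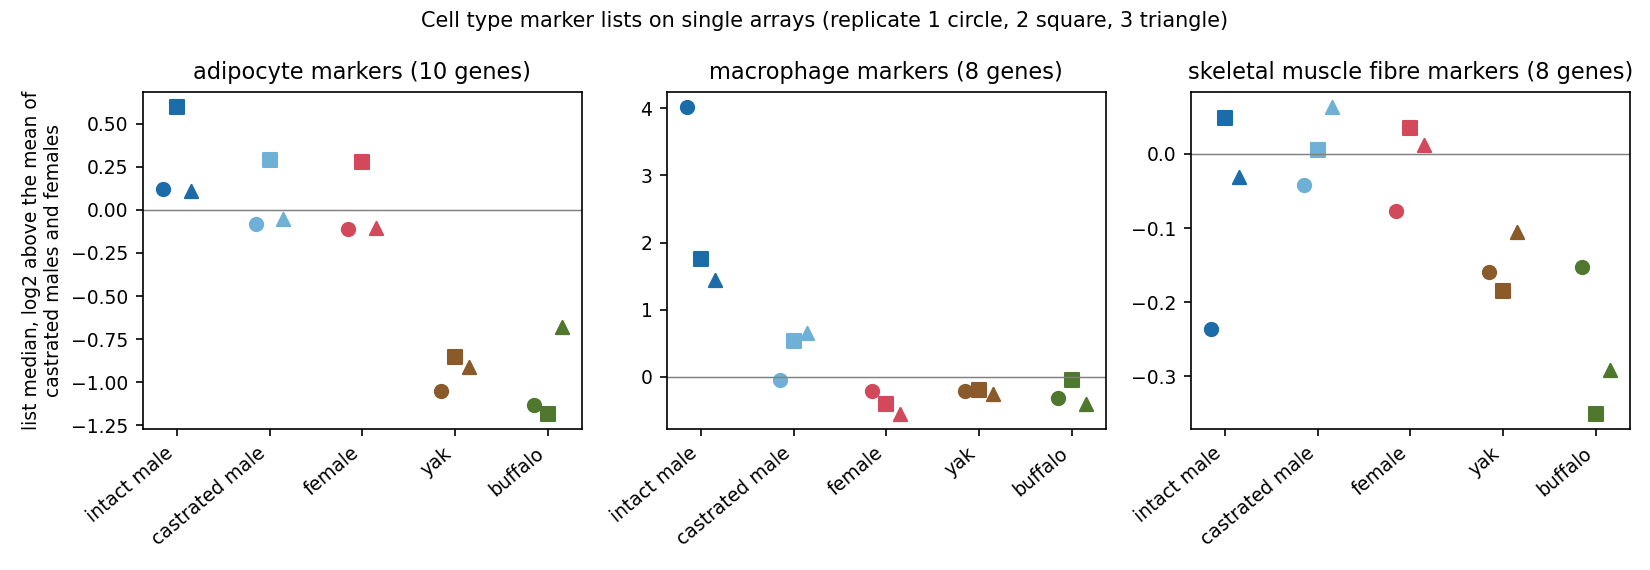
Median of each marker list on each array, on the log2 scale, relative to its mean over the 6 castrated male and female arrays; colours are groups and shapes are replicates. Macrophage markers stand 4.02 above the reference in intact male 1 and 1.43 to 1.75 in the other intact males, adipocyte markers lie 0.68 to 1.18 below it in yak and buffalo, and fibre markers move by less than 0.4.

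SCD ran the other way among the cattle groups, without passing the test. It read 790, 1259 and 776 in intact males, 324, 583 and 704 in castrated males and 621, 1024 and 499 in females. All 3 castrated males lay below all 3 intact males, while females overlapped both groups. The means were 941 ± 275, 537 ± 194 and 715 ± 274 (SD, n = 3).

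The log2 fold change of SCD in castrated against intact males was -0.82 (SE 0.35, 95% interval -1.60 to -0.05, limma's adjusted p = 0.221), and groups did not overlap for 24.8% of all probe sets. For females against intact males it was -0.42 (interval -1.2 to 0.36, adjusted p = 0.458). For females against castrated males it was 0.41 (interval -0.37 to 1.19, adjusted p = 0.824).

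FASN did not separate the cattle groups. It read 761, 861 and 417 in intact males, 325, 933 and 486 in castrated males, and 478, 1943 and 560.3 in females. Female 2 was the highest of all 15 arrays, and the other females lay within the range of the males. Means were 680 ± 233, 582 ± 315 and 994 ± 823 (SD, n = 3). The 3 log2 fold changes were -0.29 for castrated against intact males, 0.31 for females against intact males and 0.59 for females against castrated males, with limma's adjusted p of 0.8, 0.752 and 0.839. Their intervals ran from -1.53 to 0.96, from -0.94 to 1.55 and from -0.65 to 1.84. The spread between animals left FASN with the widest intervals of the members tested.

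**Figure D3:**
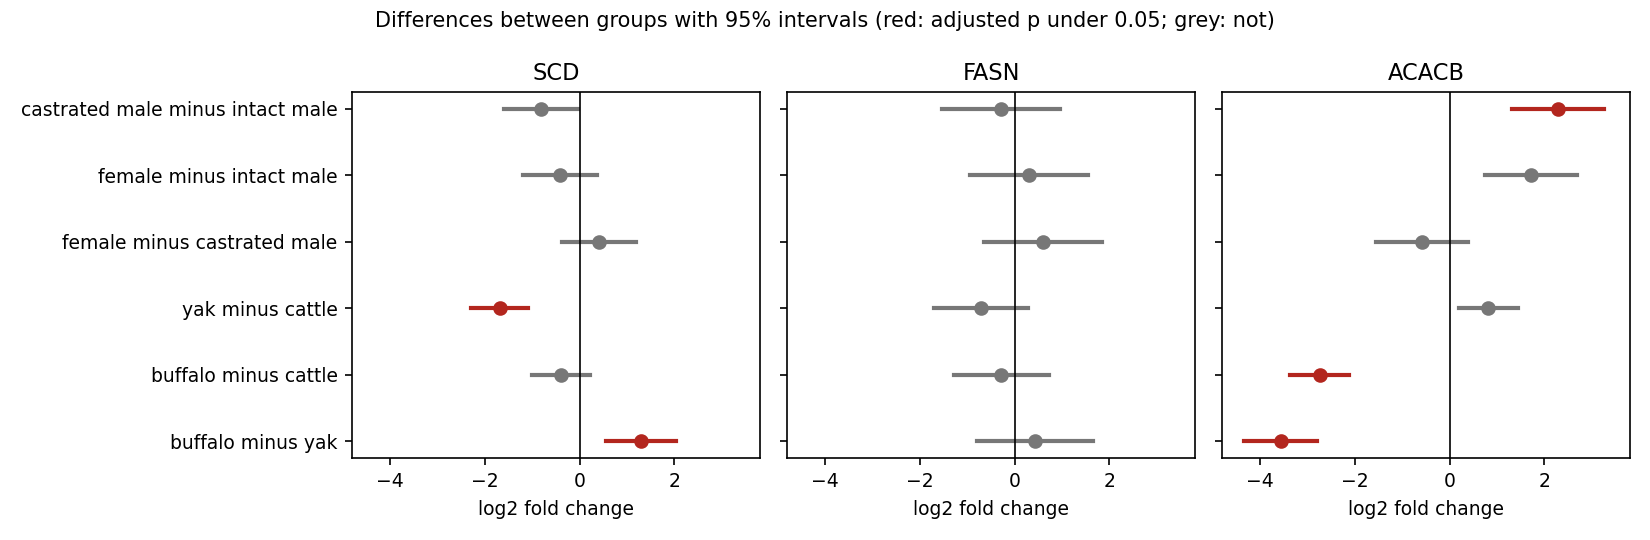
Log2 fold change of SCD, FASN and ACACB in each of the 6 comparisons, with 95% intervals as bars, in red where the adjusted p is under 0.05. SCD passes in yak minus cattle and buffalo minus yak, ACACB in castrated minus intact males and in both comparisons of buffalo, and FASN in none.

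The study also set cattle against the other 2 species. Cattle is here the mean of the 3 cattle groups, and both comparisons share those 9 arrays. SCD was lowest in yak, at 170, 162 and 291, and every yak lay below every cattle animal. It averaged 208 ± 72.0 (SD, n = 3) and fell against cattle by 1.69 on the log2 scale (SE 0.28, limma's adjusted p = 0.000812), which is 3.23-fold lower. It was the only 1 of 3 members tested to fall in yak, where 13.2% of all probe sets rose, 15.9% fell and 19.3% had groups that did not overlap. The direction and the call held in all 25 alternatives tried, with log2 fold changes between -1.95 and -1.49, the latter with castrated males and females alone as cattle. SCD is read by 1 probe set of cattle sequence, so a lower level in yak and weaker binding of yak RNA cannot be told apart here.

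Buffalo read 368, 546 and 683 for SCD, with a mean of 533 ± 158. They overlapped the cattle (log2 fold change -0.40, interval -1.0 to 0.21, limma's adjusted p = 0.257) and lay above all 3 yak. Buffalo against yak gave 1.30 (SE 0.35, adjusted p = 0.00864), where 19.5% of all probe sets rose, 22.7% fell and 55.2% had groups that did not overlap. In order of their log2 means the groups ran intact males, females, buffalo, castrated males and yak, with buffalo and castrated males in the other order by mean intensity. Buffalo differed from castrated males by 0.02 (interval -0.73 to 0.76), and yak from castrated males by -1.28 (interval -2.02 to -0.54).

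Most of the adipocyte markers tested, though not all, were also lower in yak and buffalo than in cattle. Of 14 listed, 12 had a probe set, 10 were tested and 0 were at 0 on every array. Their summed intensity was 3900 to 4565 in yak, 4826 to 7313 in buffalo and 7958 to 12522 in cattle. A large part of these sums was GPD1, at 2252 ± 364 in yak, 1714 ± 225 in buffalo and 4374 to 5851 for the cattle means. In buffalo LPL, at 3032 ± 1606, was another large part, so the sums mostly follow the brightest probe sets. In yak 6 fell and 1 rose, where 15.9% of all probe sets fell and 13.2% rose. The median log2 fold change was -1.18 against -0.02 over all probe sets. Those that fell included CFD, the adipocyte-secreted complement factor D (-1.22, SE 0.18), and LPL, which frees fatty acids from blood lipoproteins (-1.56, SE 0.32). GPD1, which supplies glycerol phosphate for triglyceride, fell by 1.13 (SE 0.22), and CIDEA, a lipid droplet protein, rose by 0.76 (SE 0.16). Leptin, LEP, gave -0.32 and did not pass.

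In buffalo 6 adipocyte markers fell and 2 rose, with a median of -0.94, where 28.4% of all probe sets fell and 23% rose. LPL, at 3032 ± 1606 against 815 to 1196 for the cattle means, and LEP (1.06, SE 0.13) rose, while CFD (-2.14, SE 0.18), GPD1 (-1.52, SE 0.22) and CIDEA (-0.93, SE 0.16) fell. Adiponectin, ADIPOQ, and the lipid droplet protein CIDEC were named after their values were seen. ADIPOQ fell in both species (-1.81 in yak, -1.93 in buffalo), as did CIDEC (-2.74 and -2.65). Both averaged 35.1 to 44.9 in these species, below 69.8, so the sizes depend on the value added before log2. The rest of the markers tested were mixed. FABP4 gave -1.64 in yak and -0.94 in buffalo and passed in neither (limma's adjusted p = 0.0598 and 0.216). TRARG1 fell in yak (-0.47) and did not pass in buffalo (-0.22, limma's adjusted p = 0.195). AQP7 fell in buffalo (-0.87) and did not pass in yak (-0.30, limma's adjusted p = 0.469). Of 9 fibroblast and matrix markers 8 fell in yak and 8 in buffalo, with medians of -1.53 and -1.88 and summed intensities of 3987 to 6391 over the 6 arrays against 8844 to 43674 in cattle. Of 8 macrophage markers 2 fell in yak and 3 in buffalo, against 15.9% and 28.4% of all probe sets. The cattle mean includes intact males, where both lists stood high. Against the mean of castrated males and females alone, the fibroblast and matrix median was -0.83 to -0.69 in yak and -1.19 to -0.87 in buffalo. The macrophage median was -0.26 to -0.19 in yak and -0.40 to -0.04 in buffalo, also on the log2 scale. The part of these other cells in the low SCD of yak was not tested.

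ACACB in buffalo stood at the bottom of its range. The 3 buffalo read 41.1, 50.0 and 40.8, all below the filter's 69.8 and below every other animal, and they averaged 43.9 ± 5.24 (SD, n = 3). Cattle group means were 170 to 768. The gene fell against cattle, with a log2 fold change of -2.75 (SE 0.29, limma's adjusted p = 5.61e-06), the only 1 of the 3 members tested to do so. Over all probe sets 23% rose, 28.4% fell and 32% had groups that did not overlap. The call held in all 25 alternatives, while the size ran from -3.41 with castrated males and females alone as cattle to -2.11 with 64 added. At intensities this dim the size depends on the value added before log2, and no exact fold is given.

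Yak read 711, 715 and 649.8 for ACACB, overlapping castrated males and, at the lowest, just under all 3 of them, and averaged 692 ± 36.6. Buffalo against yak gave -3.56 (SE 0.36, limma's adjusted p = 6.20e-06), and -3.95 to -2.81 over the 24 alternatives, again set by the value added. Yak against cattle gave 0.82 (interval 0.19 to 1.45, limma's adjusted p = 0.0508), and 0.15 (adjusted p = 0.769) with castrated males and females alone as cattle. ACACB is read by 1 probe set of cattle sequence, so a lower level in buffalo and weaker binding of buffalo RNA cannot be told apart here.

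From high to low, ACACB ran castrated males, yak, females, intact males and buffalo. Yak differed from castrated males by -0.14 (interval -0.91 to 0.63) and from females by 0.44 (interval -0.33 to 1.21), neither beyond the spread. Intact males lay below females by 1.71, with limma's adjusted p of 0.0101 when all 15 arrays set the spread (5.5% of probe sets rose) and 0.0524 when the 9 cattle arrays did. Buffalo lay below intact males by a log2 fold change of -1.42 (SE 0.36, adjusted p = 0.00564), where 26.2% of probe sets fell. As given above, all 3 buffalo lay below every cattle animal, where buffalo and cattle did not overlap for 32% of all probe sets.

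FASN read 423, 465 and 305 in yak and 343, 359 and 1228 in buffalo, where buffalo 3 stood far above the others. Means were 398 ± 82.8 and 643 ± 507 (SD, n = 3). Yak against cattle gave -0.71 (interval -1.71 to 0.28, limma's adjusted p = 0.263), buffalo against cattle -0.28 (interval -1.28 to 0.72, 0.634) and buffalo against yak 0.43 (interval -0.79 to 1.66, 0.564). By their means the groups ran females, intact males, buffalo, castrated males and yak, and no neighbours differed beyond their spread. Without buffalo 3 the buffalo difference from cattle was -0.87.

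The ACACA probe sets were dim everywhere. The first had group means of 34.4 to 51.5 and the second 37.9 to 48.4, all below 69.8, and neither was tested. For both, the highest group mean was in buffalo, at 51.5 ± 9.39 and 48.4 ± 2.46 (SD, n = 3). In a fit with no filter the 2 probe sets gave 0.33 (SE 0.11) and 0.23 (SE 0.08) in buffalo against cattle, with limma's adjusted p of 0.0240 and 0.0219, where 29.6% of all 24016 probe sets rose. In yak against cattle they gave -0.08 and 0.15 (adjusted p = 0.648 and 0.175), with opposite signs. In the 3 comparisons among cattle all their adjusted p were 0.444 or more.

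FASN moved with the fat cell markers from animal to animal. Each array was set against the mean of its own group on the log2 scale, and the deviation of FASN was compared with that of the median of the 10 adipocyte markers. Over 15 arrays Pearson's r was 0.83 and Spearman's rho 0.82 (exact permutation within groups, two-sided, p = 0.00463 and 0.00489). Adjusted over the 6 relations computed, these were 0.0278 and 0.0293. The relations were added after seeing the data, which neither these p nor their adjustment allows for. The deviations had the same sign in 12 of 15 animals, and r was 0.74 without female 2 and buffalo 3, the arrays farthest from the median of FASN. Leaving out 1 of the 15 arrays at a time gave 0.76 to 0.92. In the 9 cattle alone r was 0.91 (exact permutation p = 0.0139).

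FASN deviated by 1.25 in female 2, 1.18 in buffalo 3 and 0.80 in castrated male 2, and the marker median by 0.31, 0.22 and 0.22 in the same animals. SCD gave an r of 0.56 with the adipocyte markers (exact permutation p = 0.0787, adjusted 0.157) and 0.61 with FASN (p = 0.0642, adjusted 0.157). ACACB gave -0.16 with the markers, -0.01 with SCD and -0.24 with FASN, with adjusted p of 0.882, 0.978 and 0.554 by the same exact permutation test.

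**Figure D4:**
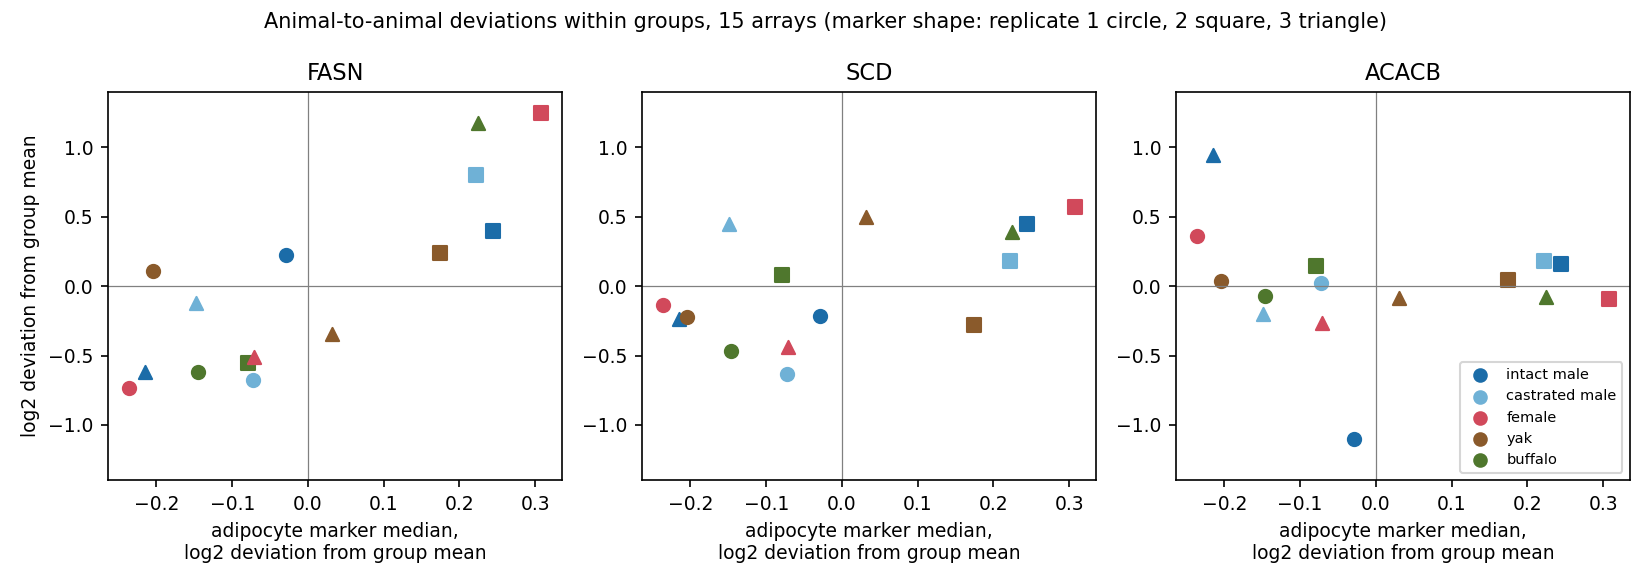
Deviation of FASN, SCD and ACACB from the group mean against that of the median of 10 adipocyte markers, both on the log2 scale, 1 point for each of the 15 arrays, coloured by group. FASN follows the markers with an r of 0.83, SCD with 0.56 and ACACB with -0.16, and for ACACB the outermost points are intact males 1 and 3.

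Among the 9 cattle arrays the 4 genes whose pattern was most like each member were taken from 7068 others, as a description. For ACACB these were MAPK6, STARD7, MAPK12 and ZBTB16, with Pearson's r of 0.973 to 0.978 and Spearman's rho of 0.87 to 0.95. Without the 2 arrays farthest from the ACACB median r stayed at 0.85 to 0.92. For FASN they were CST6, ATF5, TRARG1 and MRAS, with r of 0.84 to 0.87, or 0.65 to 0.84 without 2 arrays. TRARG1, a regulator of glucose transporter traffic in fat cells, is also in the adipocyte list. For SCD they were VAV1, KARS1, GPC3 and ACAA1, with r of 0.89 to 0.92, or 0.60 to 0.77 without 2 arrays.

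Of the genes that supply and assist these enzymes, 1 passed the test in 1 of the 3 comparisons among cattle. Of 20 listed partners 16 had a probe set and 14 were tested. In castrated against intact males 0 passed in limma (5 at an unadjusted p under 0.05, which 20.5% of all probe sets reached), with a median of -0.10. In females against intact males ACLY, which makes cytosolic acetyl-CoA from citrate, averaged 467 ± 176 in intact males and 215 ± 44.3 in females. It fell (-1.02, SE 0.25, limma's adjusted p = 0.0495) as 1 of the 14, where 3.37% of all probe sets fell. Without intact male 1, 0 of the 14 fell, and the share of all probe sets that fell in that fit is not given here. At an unadjusted p under 0.05 there were 7 of the 14, against 27.7% of all probe sets. None of the 14 passed between females and castrated males in limma, with 0 at an unadjusted p under 0.05, against 7.55% of all probe sets.

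Of 15 regulators tested, such as the sterol-response factor SREBF1, 0 passed in limma in any comparison among cattle, and 2, 3 and 1 had an unadjusted p under 0.05. Nor did any of 9 genes listed around carboxylase control and malonyl-CoA (0, 0 and 0), or of 12 genes of triglyceride assembly and storage (0, 2 and 0). Over all probe sets 20.5%, 27.7% and 7.55% had an unadjusted p under 0.05, in the same order. At the adjusted threshold 0.625%, 2.12% and 0.0139% rose and 0.84%, 3.37% and 0.00694% fell. With adjusted shares this small, 0 calls in lists of 9 to 15 genes does not set these genes apart from others. CPT1B gave 0.13 in castrated against intact males. MLYCD, which breaks malonyl-CoA down, gave 0.56. Of the adipocyte markers CFD fell in castrated males (-1.25, SE 0.23, limma's adjusted p = 0.0387) and in females (-1.34, SE 0.23), the only 1 of 10 in each. Over all probe sets 0.84% and 3.37% fell in these comparisons. The call in castrated males was lost without intact male 1.

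Between species the supply genes moved in different directions. Each list gene was read through 1 cattle probe set, so for these genes too a changed level and changed binding cannot be told apart. ACSS2, which activates acetate, the main carbon source for ruminant fat synthesis, averaged 224 to 298 in the cattle groups, 545 ± 67.4 in yak and 808 ± 78.4 in buffalo. It rose by 1.07 (SE 0.13) and 1.63 (SE 0.13) on the log2 scale. ACLY fell in both, by 0.65 (SE 0.19) and 0.96. Its mean was 176 ± 24.5 for yak and 141 ± 34.5 for buffalo. Among cattle the female mean was 215 and the castrated male mean 238, while the intact male mean stood at 467. The cattle reference for the yak fall thus includes a group well above the others. SCD5, the desaturase related to SCD, also fell in both, by 0.78 (SE 0.10) and 0.63 (SE 0.10). In all, 3 of the 14 partners rose and 3 fell in yak, and 2 rose and 6 fell in buffalo, where the medians were -0.02 and -0.01. Over all probe sets 13.2% rose and 15.9% fell in yak, and 23% and 28.4% in buffalo. With castrated males and females alone as cattle, 1 rose and 1 fell in yak, while the counts in buffalo were 2 and 6. Neither the genes behind these counts nor the shares of all probe sets called in that fit are given here. The drop in yak therefore cannot be set against a drop over all probe sets.

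ME1, the malic enzyme that supplies NADPH, averaged 57.7 ± 7.82 in buffalo and 145 to 226 in the cattle groups, and fell by 1.49 (SE 0.15). The buffalo arrays read 66.8, 53.0 and 53.4, all below 69.8, so this size depends on the value added before log2. The citrate carrier SLC25A1 fell in buffalo as well, by 1.05 (SE 0.15). MID1IP1, which promotes assembly of acetyl-CoA carboxylase into its active polymer, rose in yak (0.99, SE 0.24) and averaged 5343 ± 910 there. Its female mean was 3035 and its castrated male mean 3541, while the intact male mean was lower, at 1817. Whether the yak calls of ACLY and MID1IP1 held with castrated males and females alone as cattle is not given here. In buffalo against yak MID1IP1 gave -1.85 (SE 0.29).

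Among the regulators INSIG1, which holds SREBF1 protein back in the endoplasmic reticulum and is itself induced by it, was dim in yak and buffalo. It averaged 19.6 ± 5.02 in yak, 44.1 ± 4.13 in buffalo and 121 to 175 in the cattle groups. INSIG1 fell by 2.14 (SE 0.25) in yak and 1.38 (SE 0.25) in buffalo. All 6 yak and buffalo arrays lay below 69.8, so these sizes depend on the value added before log2. SREBF1 fell in yak by 0.84 (SE 0.22), from cattle means of 331 to 589 to 259 ± 66.1. In buffalo SREBF1 gave -0.16 and did not pass. Of the 15 regulators 2 rose and 2 fell in yak and 0 rose and 6 fell in buffalo. In yak that is close to the 13.2% that rose and 15.9% that fell over all probe sets, and in buffalo the shares over all were 23% and 28.4%.

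**Figure D5:**
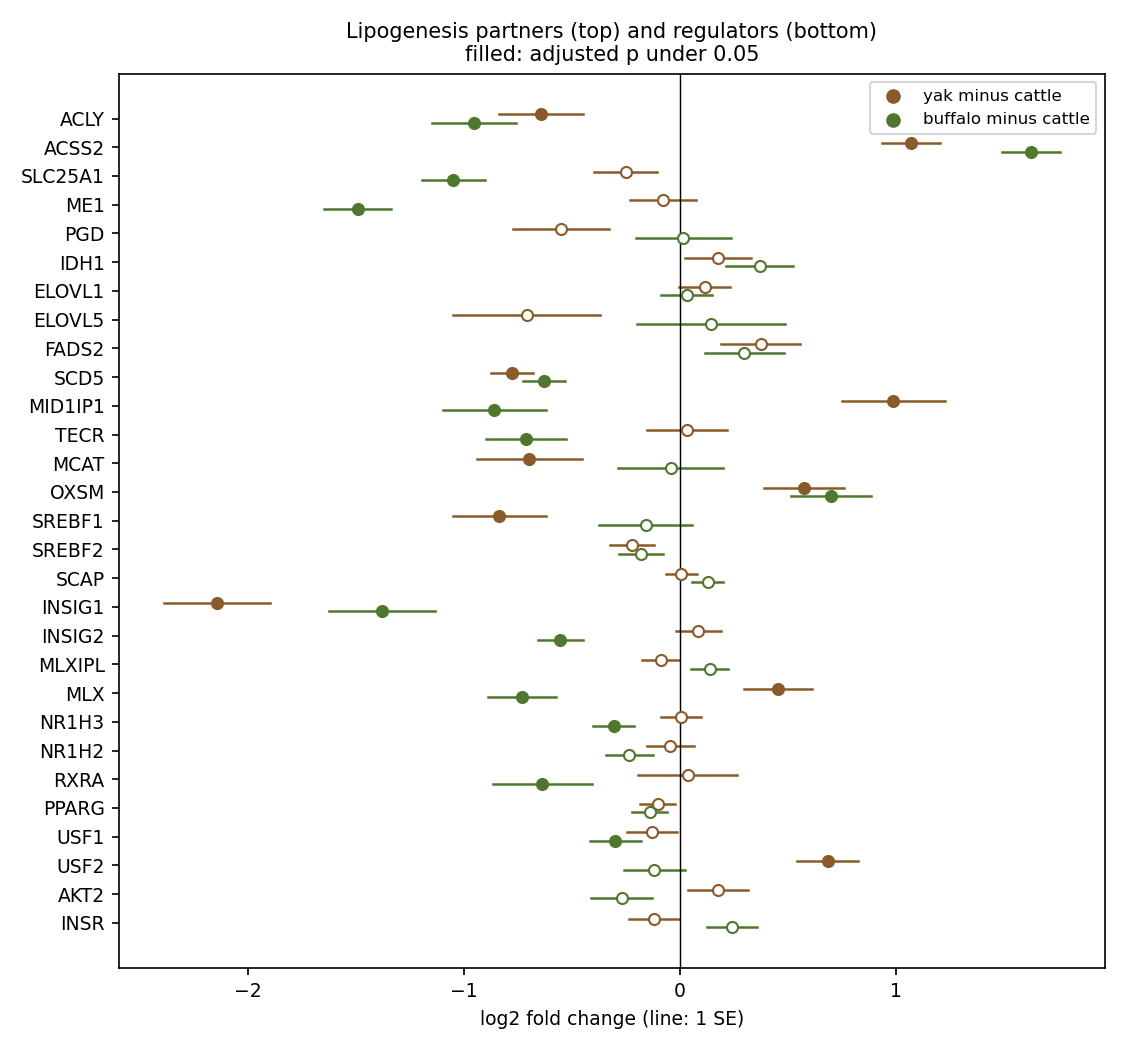
Log2 fold change of each tested lipogenesis partner (ACLY to OXSM) and regulator (SREBF1 to INSR) in yak and buffalo against cattle, with lines of 1 SE and filled points where the adjusted p is under 0.05. ACSS2 lies above 0 and ACLY, SCD5 and INSIG1 below 0 in both species, while ME1 and SLC25A1 are low in buffalo and MID1IP1 lies on opposite sides.

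Of the genes listed around carboxylase control and malonyl-CoA, CPT2, the inner-membrane partner of CPT1B, fell by 0.83 (SE 0.08) in yak and 0.88 (SE 0.08) in buffalo. MLYCD fell in buffalo by 1.2 (SE 0.25), and PPARGC1A, a coactivator of mitochondrial genes, rose there by 1.33 (SE 0.20). In this list of 9, 0 rose and 1 fell in yak, and 3 rose and 3 fell in buffalo. Of 12 triglyceride genes, 0 rose and 3 fell in yak and 2 rose and 4 fell in buffalo. These counts stand against 13.2% that rose and 15.9% that fell over all probe sets in yak, and 23% and 28.4% in buffalo. In buffalo the acyltransferase AGPAT3 fell by 2.03 (SE 0.14), to 168 ± 23.1 from cattle means of 695 to 773, and ABHD5, the activator of the fat cell lipase, rose by 1.67 (SE 0.21). That lipase, PNPLA2, is in the same list and fell in buffalo (-1.03, SE 0.33, limma's adjusted p = 0.0198). The actin ratio was 1.49 to 1.93 in yak and 1.42 to 1.73 in buffalo, against 1.17 to 1.48 in cattle, and its part in these differences was not tested.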

How the data were processed

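Longissimus dorsi RNA of 15 animals was read on 15 Affymetrix bovine arrays, from 6 µg of labelled total RNA each, per the labels' protocols. The authors deposited the intensity of each of 24128 probe sets on a linear scale. How they corrected background, summarised probes and normalised is not given in the sources used. The 112 control probe sets were set aside, and no further normalisation was made. Intensities had 16 added and were taken to log2. Probe sets with a mean above the 40th percentile (6.42 on that scale) were tested, 14409 of 24016. Platform annotation named 1 gene for 13292, several for 86 and none for 10638.

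The fits used limma 3.58.1 (eBayes with a trend) under R 4.3.3, on the 9 cattle arrays or, between species, on all 15. Adjusted p are Benjamini-Hochberg values over all probe sets of a comparison, two-sided. The fits and the permutation test were tested on simulated data. Arrays of a group are labelled as biological replicates, and 0 pairs of arrays were identical. List genes are represented by their brightest probe set. Named were all members, up to 4 called genes with the smallest p per list and comparison, and the 4 genes most like each member. The members and lists were chosen with earlier results of these data known. The relations between deviations, the 10 pairwise comparisons of groups on all 15 arrays and the list counts on fewer arrays were added after seeing the data. Alternatives covered the added value, scaling, the filter, the trend, array weights, the cattle reference, a replicate block and leaving out each array.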

Additional observations from a re-analysis of the deposited data

How the results depend on the processing

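The calls for SCD in yak against cattle and in buffalo against yak, and for ACACB in buffalo against cattle and against yak, held in every alternative tried. Of 177 values of SCD, FASN and ACACB under settings that kept all arrays, 165 kept their direction and side of the threshold, 1 lost its call, 11 gained one and 0 changed direction. The lost call was ACACB in castrated against intact males with the replicate block (2.29, adjusted p = 0.0755). The replicate numbers pair nothing in the labels, deviations of same-numbered arrays correlated at -0.326 to 0.145, over 0.1 in 6 of 30 pairs, and the block changed no other call of a member. ACACB in females against intact males gained a call with 64 added (1.41), median centring (1.75), the filter at the 60th percentile (1.71), array weights (1.45) and the fit on all 15 arrays (1.71). In yak against cattle it did with 64 added (0.70), median centring (0.85), the 60th percentile (0.82) and array weights (0.78). SCD gained a call with array weights in castrated (-1.12) and female (-0.82) against intact males. The weights stopped before reaching their tolerance, and the causes were not tested.

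Leaving out 1 array gave FASN -0.69 to 0.053 in castrated against intact males, -0.32 to 0.67 in females against intact males, -0.033 to 0.99 in females against castrated males, -0.87 to 0.031 in buffalo against cattle and -0.15 to 0.74 in buffalo against yak. For ACACB it gave 1.74 to 2.76 in castrated and 1.15 to 2.18 in females against intact males, and 0.63 to 0.97 in yak against cattle.

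In castrated against intact males 211 probe sets passed, 3533 with array weights, 718 in the fit on all 15 arrays and 41 to 995 with 1 array left out. In females against intact males these were 792, 5069, 1911 and 77 to 2194. In females against castrated males 3 passed, 0 with 1 added, 1 at the 60th percentile, 14 with array weights, 5 on all arrays and 2 to 10 with 1 left out. At an unadjusted p under 0.05 there were 1088. In yak against cattle 4196 passed, 7021 with array weights and 2281 to 4643 with 1 left out. In buffalo against cattle 7400 passed, 44.8% of them higher, and 7884 after quantile normalisation, 55.8% of them higher. With no filter 11929 passed there.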

Other observations

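FASN was highest in replicate 2 in 4 of the 5 groups, the exception being buffalo, where replicate 3 was highest. ADIPOQ, CIDEC and TRARG1 followed the same order of highest arrays, also with replicate 2 in 4 of 5 groups. For SCD this held in 2 groups, for FABP4 in 2, for ACACB in 3 and for LEP in 1. The labels give the replicate number no meaning beyond naming the animal. These genes were singled out after their values were seen.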
